A study of Schizosaccharomyces pombe with 97 samples.

Results

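The genes described here are 10 fission yeast (*Schizosaccharomyces pombe*) genes of nitrogen uptake and assimilation, picked by name out of 7014 genes in the count table, by a rule that uses no measured value but was set with earlier results of these data known. They comprise 3 ammonium transporter genes (*amt1*, *amt2* and *amt3*), 3 plasma membrane carriers of peptides and amino acids (*isp4*, *per1* and *put4*), the vacuolar amino acid transporter gene *fnx1*, and 3 genes of the enzymes that fix or release ammonium (*gln1*, *gdh1* and *gdh2*). Each was found under its symbol, had 1 annotated exon and passed the filter on low counts, so 10 of 10 were tested among 6608 genes.

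RNA sequencing was available for 81 libraries in 27 groups of 3 cultures (replicates A, B and C). The wild type was a prototrophic *mat1-M smt0* strain, hereafter *smt0*, and each of 6 mutants carried a single gene replaced by *kanMX4* in the same mating-type background: *hht2∆* (a histone H3 gene), *pht1∆* (the histone variant H2A.Z), *iec1∆* and *ies2∆* (subunits of the Ino80 chromatin remodelling complex, Ino80C), *arp42∆* (a putative Ino80C subunit) and *asp1∆* (an inositol kinase). Mutants came from a commercial deletion collection by a cross to the *smt0* strain. Cells were taken in log phase in minimal medium with glutamate as the nitrogen source (T0), and, in the same medium without nitrogen, at T1D (24 h of starvation), T1W (after 1 week) and T2W (after 2 weeks); for *ies2∆* there was no T2W group. The 9 *ies2∆* libraries form a second batch that holds no wild type, and for that mutant the effects of strain and batch cannot be told apart. The 3 cultures of a group are biological replicates per the study's methods, and each mutant was compared with the same *smt0* cultures, so comparisons at a time point share their control.

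Libraries held 1980570 to 18992894 gene counts (median 5149311) and 5678 to 3003773 reads of the ERCC spike-in, a mix of synthetic RNAs whose amount per sample followed the count of vegetative cells. A pair of scales is used. On the ERCC scale, counts are divided by the spike-in, so a change is per counted vegetative cell; on the relative scale, counts are divided by a library size from all gene counts (TMM), so a change is relative to the other transcripts of the library. Of the deletion labels, the deleted gene was counted at 0.197% to 0.922% of the *smt0* level in 7 *hht2∆* libraries and at 3.37% to 8.92% in the 12 *asp1∆* libraries, but at 14.6% to 36.6% in 5 libraries labelled *hht2∆* (replicate A at each time point and replicate C at T2W) and at 217% in the library labelled *ies2∆* T0 C; in the other 8 *ies2∆* libraries it lay between 0.923% and 37.3%. Comparisons of *hht2∆* and *ies2∆* with *smt0* were also fitted without those 6 libraries. The counts of strains, coefficients of variation and correlations below include these libraries and were not repeated without them. In the libraries labelled *pht1∆*, *iec1∆* and *arp42∆* the deleted gene was counted at 38.2% to 118%, 52.6% to 145% and 9.63% to 96.4% of *smt0*, so the counts do not bear these labels out, and the strain names below stand for libraries so labelled. The counts cover whole exons, of which 33.2%, 51.7% and 43.6% of bases are coding in these genes and 52.8% in *hht2*; the origin of the reads was not tested. Markers of M cells (*mfm1*, *mfm2*, *mfm3*, *mam1* and *mam2*) reached 10061 to 49234 counts, whereas the P-cell genes *map2* and *map3* reached at most 437 and 365.

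Fission yeast takes up ammonium through Amt transporters and amino acids and peptides through permeases of the plasma membrane, and it stores amino acids in the vacuole. Ammonium enters metabolism through the NADP-dependent glutamate dehydrogenase Gdh1, which makes glutamate from 2-oxoglutarate, and through the glutamine synthetase Gln1, which adds a further ammonium to glutamate. The NAD-dependent glutamate dehydrogenase Gdh2 works in the opposite direction and releases ammonium from glutamate, the nitrogen source of the medium used here. When nitrogen runs out, fission yeast cells arrest with unreplicated DNA and, without a mating partner, enter quiescence (G0); the GATA-type transcription factor Gaf1 is known to act on nitrogen genes in this transition.

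Promoters were read from the RefSeq genome (ASM294v3) at the coordinates of the files' build (ASM294v2); 5280 of 5299 introns of the files' gene models began with GT and ended with AG in that genome, which was taken to mean that the coordinates apply. The 250 bases before the most upstream annotated start of each gene were searched on both strands for GATAA, the core recognised by GATA factors, and for the longer GATAAG, which contains it. GATAAG was present in 6 of 10 members (*gdh1* with 3 copies, *per1* with 2, and *amt1*, *amt3*, *put4* and *fnx1* with 1 each) and in 9.13% of 5105 protein-coding genes' windows of the same length. GATAA was present in 9 of 10 members, *gdh2* being the exception, and in 54.6% of all windows. A match is a description of the letters in this window and not of a bound site. The windows of 4 members are shown. In wild type at T1D the transcript of *isp4* rose most among the members, and those of *gdh2* and *gdh1* fell most. The fourth, *amt1*, stands for the ammonium transporter genes that were higher at T1D relative to other transcripts. Capitals mark GATAA or, where it lies on the other strand, its complement TTATC. Each window is written 5′ to 3′ on the gene's strand.
amt1, chromosome III:2068727-2068976, plus strand: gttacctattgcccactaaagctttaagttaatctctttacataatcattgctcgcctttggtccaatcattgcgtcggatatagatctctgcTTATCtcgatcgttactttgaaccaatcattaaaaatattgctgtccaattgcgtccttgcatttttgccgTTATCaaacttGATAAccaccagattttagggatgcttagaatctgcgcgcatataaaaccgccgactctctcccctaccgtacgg
isp4, chromosome II:1553468-1553717, minus strand: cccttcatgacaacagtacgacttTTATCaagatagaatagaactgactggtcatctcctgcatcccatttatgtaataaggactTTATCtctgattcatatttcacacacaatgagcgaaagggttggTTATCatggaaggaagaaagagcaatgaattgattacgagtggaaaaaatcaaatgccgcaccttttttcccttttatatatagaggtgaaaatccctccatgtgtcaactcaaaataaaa
gdh1, chromosome III:1421213-1421462, minus strand: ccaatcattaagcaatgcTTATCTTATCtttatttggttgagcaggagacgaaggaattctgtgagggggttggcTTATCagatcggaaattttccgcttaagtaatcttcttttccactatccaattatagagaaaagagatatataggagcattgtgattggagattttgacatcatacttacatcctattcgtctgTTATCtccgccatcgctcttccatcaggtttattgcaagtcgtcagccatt
gdh2, chromosome III:1336198-1336447, minus strand: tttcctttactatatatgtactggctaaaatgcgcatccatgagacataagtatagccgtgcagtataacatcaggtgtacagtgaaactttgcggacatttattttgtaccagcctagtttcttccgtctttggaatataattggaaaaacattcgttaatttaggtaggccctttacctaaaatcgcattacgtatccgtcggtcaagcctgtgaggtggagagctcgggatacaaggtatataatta
The *amt1* copies began 157, 86 and 75 bases before the start and the *isp4* copies 226, 165 and 121 bases before it. Those of *gdh1* began at 232, 227, 175 and 51 bases, the first 2 being adjacent.

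In growing *smt0* cells the glutamate dehydrogenase genes led, and after 1 day without nitrogen the transporters did. Per length (RPKM on the relative scale, mean ± SD, n = 3), *gdh2* was the highest at T0 with 597 ± 114, followed by *gdh1* with 281 ± 25.5, then *put4*, *gln1* and *per1*, whose cultures overlapped, at 201 ± 32.9, 179.5 ± 57.0 and 176 ± 8.12. Below these came *amt1* (112 ± 12.5), *amt2* (80.8 ± 3.38), *isp4* (51.5 ± 7.0), *fnx1* (30.0 ± 4.73) and *amt3* (0.688 ± 0.344), with no overlap between neighbours. At T1D *isp4* (768 ± 265) and *put4* (605 ± 96.0) led and overlapped each other, *amt1* (405 ± 88.3), *per1* (334 ± 56.9) and *gln1* (318 ± 41.4) followed as a second overlapping set, and *gdh2* had dropped to the ninth place with 37.2 ± 4.21. The order at T1W and T2W began with the same 6 genes as at T1D (*isp4*, *put4*, *amt1*, *per1*, *gln1* and *gdh1*), and *amt3* stayed last at 3.52 ± 1.20 and 3.35 ± 1.60. At T2W each neighbouring pair among these 6 genes overlapped.

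Relative to the rest of the transcriptome, 6 of the 10 genes were higher and 3 lower at T1D than at T0 in *smt0*. Of all genes, 27.1% were called higher and 26.9% lower, and the median log2 fold change was 0.87 over the members and 0.019 over all genes. The 2 directions followed function in part: the risers were carriers (*amt1*, *amt3*, *isp4*, *per1*, *put4* and *fnx1*), and those lower were both glutamate dehydrogenase genes and the ammonium transporter gene *amt2*. At T1W 4 members were higher and 3 lower (all genes: 29.3% and 30.5%), and at T2W again 4 and 3 (all genes: 31% and 32.6%). Calls here and below are by edgeR's quasi-likelihood test, at an adjusted *P* below 0.05. The Benjamini-Hochberg adjustment runs over the 6608 genes of a comparison. Each SE is the size of the log2 fold change divided by the square root of that test's F value.

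**Figure D1:**
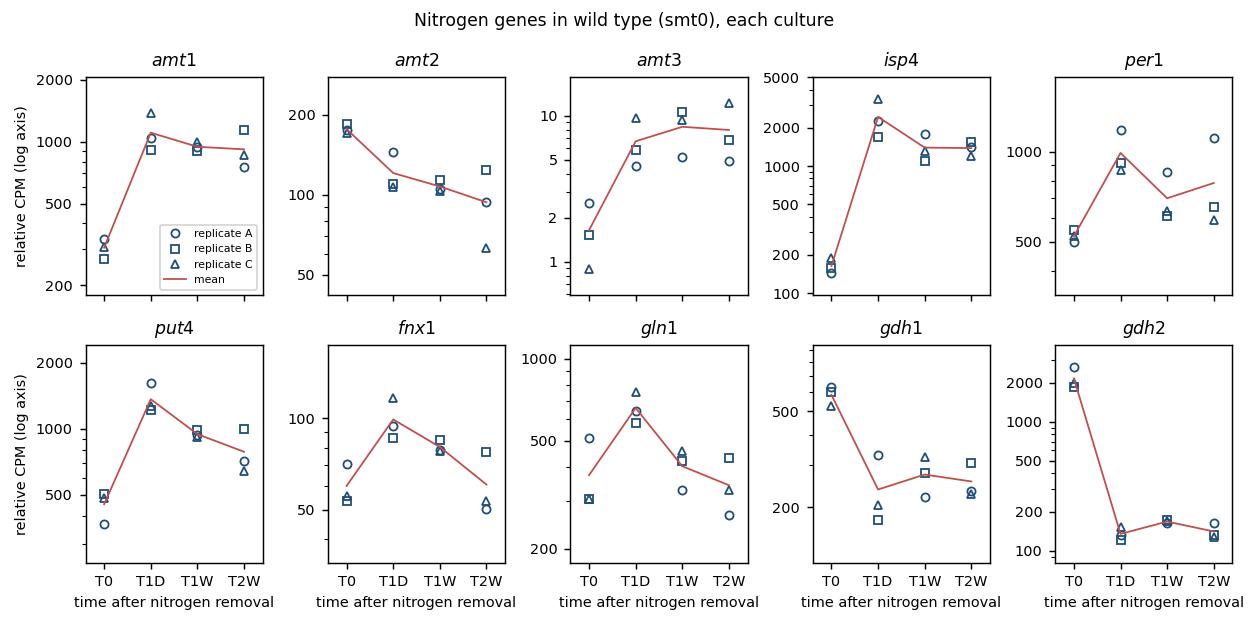
Level of each gene in wild type (*smt0*) on the relative scale (CPM, log axis) at T0, T1D, T1W and T2W; symbols are the 3 cultures and the line joins their means. The *isp4* cultures lie at 145 to 188 at T0 and at 1685 to 3344 at T1D, while those of *gdh2* lie at 1865 to 2639 at T0 and at 121 to 151 at T1D.

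*isp4*, an oligopeptide transporter gene first found among transcripts induced in sexual differentiation, had the largest rise. Its relative CPM in replicates A, B and C was 145, 158 and 188 at T0 and 2284, 1685 and 3344 at T1D. It was 1774, 1099 and 1319.5 at T1W and 1421, 1535 and 1200.4 at T2W. Every starved culture was above every T0 culture, and T1D replicate B lay within the range of the T1W cultures. The change at T1D was 14.9-fold (log2 fold change 3.90, SE 0.51, edgeR adjusted *P* = 2.4e-09), and the log2 fold changes at T1W and T2W were 3.10 (SE 0.49, edgeR adjusted *P* = 1.85e-07) and 3.08 (SE 0.49, edgeR adjusted *P* = 1.68e-07).

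*amt1*, the ammonium transporter gene with the highest level in starved cells, had 337, 269 and 308 relative CPM at T0 and 1038, 906 and 1374 at T1D. It then stood at 938, 902 and 993 at T1W and 754, 1135 and 864 at T2W. None of the starved cultures overlapped those at T0, and the 3 starved groups overlapped one another. The log2 fold changes at T1D, T1W and T2W were 1.86 (SE 0.49, edgeR adjusted *P* = 0.00107), 1.63 (SE 0.49, edgeR adjusted *P* = 0.00313) and 1.59 (SE 0.49, edgeR adjusted *P* = 0.00362).

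The second ammonium transporter gene, *amt2*, moved the other way. Relative CPM was 175, 185 and 170.0 at T0 and 145, 110.0 and 107 at T1D. It was 105, 114 and 103 at T1W and 94.1, 124 and 63.0 at T2W, so that the starved cultures were below those of T0 without overlap. The log2 fold changes were small, -0.55 (SE 0.24, edgeR adjusted *P* = 0.048), -0.72 (SE 0.24, edgeR adjusted *P* = 0.00859) and -0.91 (SE 0.24, edgeR adjusted *P* = 0.000944). The call at T1D was lost when any one of *smt0* T0 A, B or C or T1D B or C was left out (log2 fold changes -0.57 to -0.44, edgeR adjusted *P* 0.0643 to 0.175).

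*amt3* was the least abundant of the 10 genes, with 16, 13 and 5 reads at T0 and 41, 69 and 35 at T1D, which is 2.51, 1.52 and 0.885 relative CPM at T0, and 4.52, 5.85 and 9.66 at T1D. Relative CPM was 5.18, 10.7 and 9.33 at T1W, and 4.89, 6.81 and 12.3 at T2W. The groups did not overlap with T0 at any of the 3 times, and the log2 fold changes were 1.94 (SE 0.53, edgeR adjusted *P* = 0.00157), 2.32 (SE 0.53, edgeR adjusted *P* = 0.00015) and 2.22 (SE 0.55, edgeR adjusted *P* = 0.00035). A non-coding gene on the other strand (*amt3-antisense-1*) covers 1792 bases of *amt3* and had a median of 79 reads per library against 55 for *amt3*; the libraries keep strand, but the strand setting of the counting is not given in the sources used here, so reads of the 2 genes may not be fully separated. In *smt0* the antisense gene had a mean relative CPM of 7.88 at T0 and 11.1 at T1D, and of 18.3 and 30.5 at the later times, so it was also higher in starved cells, and its part in the *amt3* values was not tested.

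The amino acid permease genes rose less than *isp4*. *put4*, which encodes a proline permease, had 369, 506 and 486 relative CPM at T0 and 1613, 1215 and 1266 at T1D. At T1W it had 936, 985 and 917, and at T2W 717, 1003 and 640.0. Its starved cultures were above those at T0 at each time, by log2 fold changes of 1.59 (SE 0.41, edgeR adjusted *P* = 0.00096), 1.06 (SE 0.41, edgeR adjusted *P* = 0.0221) and 0.79 (SE 0.41, edgeR adjusted *P* = 0.0838), the last not called. Without *smt0* T0 A the value at T1W was 0.90 (edgeR adjusted *P* = 0.0999). *put4* lies on chromosome I at 5492902 to 5495156, 84 kb from the end of the right arm, and so is also one of the genes near that telomere.

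*per1*, encoding an amino acid permease, went from 497, 546 and 521 relative CPM at T0 to 1183, 916 and 871 at T1D. It was 855, 607 and 633 at T1W and 1112, 651 and 593 at T2W, above T0 in each culture. The log2 fold changes were 0.93 (SE 0.25, edgeR adjusted *P* = 0.00151), 0.42 (SE 0.25, edgeR adjusted *P* = 0.141) and 0.59 (SE 0.25, edgeR adjusted *P* = 0.035), of which that at T1W was not called; that at T2W was 0.28 to 0.59 (edgeR adjusted *P* 0.0696 to 0.355) without *smt0* T0 A, T0 C or T2W A. *fnx1*, a vacuolar amino acid transporter gene known from its effect on entry into a G0-like state, had 70.8, 53.6 and 55.4 relative CPM at T0 and 94.7, 86.4 and 116 at T1D. Its change was past the threshold at T1D (log2 fold change 0.72, SE 0.31, edgeR adjusted *P* = 0.0406), though not without *smt0* T0 B, T0 C, T1D A or T1D C (log2 fold changes 0.62 to 0.74, edgeR adjusted *P* 0.0619 to 0.133). At T1W and T2W its values of 0.42 (SE 0.31, edgeR adjusted *P* = 0.234) and 0.016 (SE 0.31, edgeR adjusted *P* = 0.969) were not called.

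Among the enzyme genes, *gdh2* had the largest fall. Its relative CPM was 2639, 1865 and 1995 at T0 and 132, 121 and 151 at T1D, with 163, 173 and 169 at T1W and 163, 131 and 128 at T2W. The starved cultures lay far below those at T0, and those at T1D and T2W overlapped. The fall was 16.1-fold at T1D (log2 fold change -4.01, SE 0.20, edgeR adjusted *P* = 1.4e-24), and the log2 fold changes at T1W and T2W were -3.69 (SE 0.20, edgeR adjusted *P* = 2.11e-23) and -3.94 (SE 0.20, edgeR adjusted *P* = 1.35e-24).

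*gdh1* fell less, from 631, 599.8 and 527 relative CPM at T0 to 329, 177 and 206 at T1D. Later values were 220.2, 278 and 323 at T1W and 235, 307 and 228 at T2W. The T0 cultures were above all 9 starved ones, and the log2 fold changes were -1.30 (SE 0.28, edgeR adjusted *P* = 8.18e-05), -1.10 (SE 0.28, edgeR adjusted *P* = 0.000605) and -1.19 (SE 0.28, edgeR adjusted *P* = 0.000198). *gln1* was not called at any time: its cultures had 509.6, 304 and 305 relative CPM at T0 and 644, 582 and 752 at T1D, without overlap (log2 fold change 0.82, SE 0.37, edgeR adjusted *P* = 0.0521), and at T1W and T2W the log2 fold changes were 0.11 (SE 0.36, edgeR adjusted *P* = 0.813) and -0.12 (SE 0.36, edgeR adjusted *P* = 0.782).

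Per cell, on the ERCC scale, the calls differed with time. At T1D *isp4* was higher, *gdh1* and *gdh2* were lower, and the other 7 genes were not called, beside 2.24% of all genes called higher and 21.4% lower. *isp4* went from 107, 117 and 155 reads per 1000 ERCC reads at T0 to 1492, 528 and 488 at T1D, each culture above T0 (log2 fold change 2.73, SE 0.70, edgeR adjusted *P* = 0.00222). For *gdh2* the values were 1953, 1387 and 1639.8 at T0 and 86.2, 38.0 and 22.1 at T1D (log2 fold change -5.09, SE 0.79, edgeR adjusted *P* = 3.23e-08). *gdh1* had a log2 fold change of -2.16 (SE 0.69, edgeR adjusted *P* = 0.0135), which was -1.73 to -1.87 (edgeR adjusted *P* 0.113 to 0.163) without *smt0* T1D B or C and -3.39 (edgeR adjusted *P* = 0.000901) without *smt0* T1D A. Its cultures had 467, 446 and 433 reads per 1000 ERCC reads at T0 and 215, 55.6 and 30.0 at T1D. The T1D cultures differed widely on this scale, as in *amt1* with 249, 200.1 and 253 at T0 and 678, 284 and 200.3 at T1D, and the median log2 fold change was -0.14 over the members and -1.05 over all genes.

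At T1W and T2W 10 of 10 members were lower per cell than at T0, as were 97.3% and 96.1% of all genes, while 0.257% and 0.318% of all genes were higher; the members' count is that of the background. Their median log2 fold change was -4.75 at T1W and -4.51 at T2W, beside -5.29 and -4.94 over all genes. The size of the fall separated the members. *isp4* fell least, from 107, 117 and 155 reads per 1000 ERCC reads at T0 to 68.4, 20.3 and 5.55 at T1W and 41.8, 60.5 and 10.5 at T2W, with log2 fold changes of -2.01 (SE 0.69, edgeR adjusted *P* = 0.00361) and -1.75 (SE 0.68, edgeR adjusted *P* = 0.0108). The value at T1W was -3.25 (edgeR adjusted *P* = 0.00013) without *smt0* T1W A, and that at T2W was -1.43 (edgeR adjusted *P* = 0.0561) without *smt0* T2W C. *gdh2* fell most, to 6.29, 3.19 and 0.709 at T1W and 4.81, 5.17 and 1.12 at T2W, by log2 fold changes of -8.94 (SE 0.94, edgeR adjusted *P* = 4.25e-19) and -8.81 (SE 0.93, edgeR adjusted *P* = 1.19e-18). The other members had log2 fold changes between -6.49 (*gdh1*) and -3.14 (*amt3*) at T1W. In bulk RNA, fewer cells with intact RNA and less RNA per cell cannot be told apart.

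**Figure D2:**
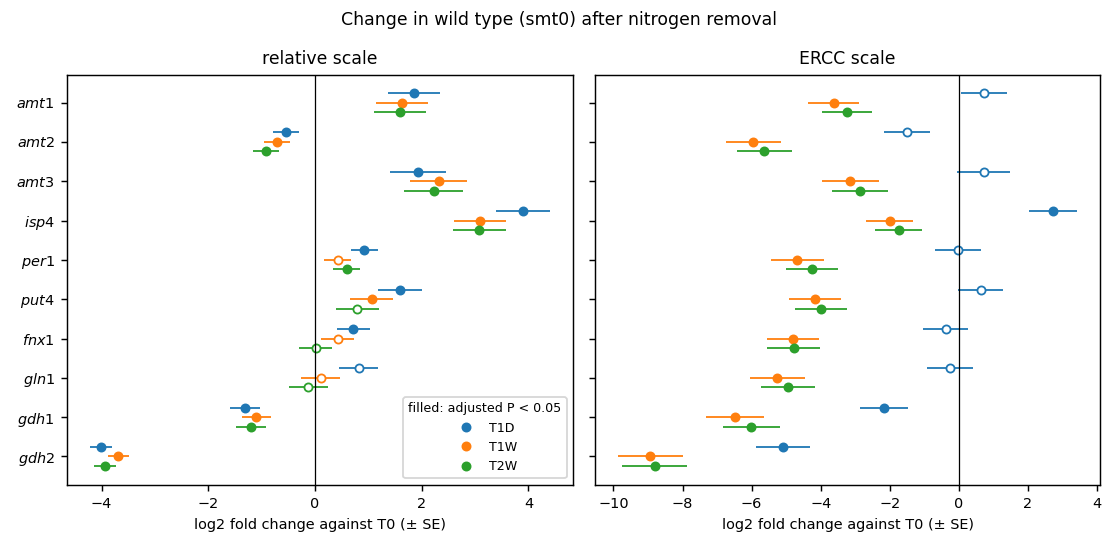
Log2 fold change against T0 in wild type (*smt0*) at T1D, T1W and T2W. Each gene is shown on the relative scale (left) and the ERCC scale (right). Bars are standard errors, the size of the log2 fold change divided by the square root of edgeR's F value. Filled points passed an adjusted *P* of 0.05. On the left *isp4* is farthest right (3.90 at T1D) and *gdh2* farthest left (-4.01 at T1D), and on the right the T1W and T2W points of 10 of 10 genes lie below 0.

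Other genes of nitrogen metabolism, in lists chosen with earlier results of these data known, were called higher more often than lower in relative terms at T1D. Among all genes 27.1% were higher and 26.9% lower, with a median log2 fold change of 0.019. Several genes of the lists are among those the paper reported as upregulated at T1D in the same cultures, so these counts are descriptions only. Of 13 other genes of uptake and vacuolar transport 11 were matched, of which 8 were higher and 1 lower (median log2 fold change 0.92). Of 15 genes of nitrogen release and transfer 9 were matched, with 5 higher and 2 lower (median 1.05), and of 9 regulators 8 were matched, with 5 higher and 1 lower (median 0.79). Among the risers were *xan1*, a xanthine dioxygenase gene (relative log2 fold change 5.14), the dipeptide transporter gene *ptr2* (3.36), *isp7*, whose product regulates amino acid uptake (3.35), the D-amino acid oxidase gene *dao1* (3.28) and the amino acid permease gene *isp5* (3.24). The allantoate permease gene *dal51* (2.83), the uracil permease gene *fur4* (2.81), the GABA transaminase gene *uga1* (2.80) and the GATA factor gene *gaf1* (2.34) were higher too. The vacuolar basic amino acid transporter gene *vba2* was lower, with -3.10.

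On the relative scale the direction at T1D was shared by the 7 strains for some members and not for others. The T1D cultures were above the T0 cultures without overlap in 7 of 7 strains for *isp4* and *amt1*, in 6 for *per1* and *put4* and in 5 for *amt3* and *fnx1*. Of all genes tested, 10.3% lay above T0 in this way in 7 of 7 strains, 17% in at least 6 and 23.7% in at least 5. The T1D cultures were below T0 in 7 of 7 strains for *gdh2*, *gdh1* and *amt2*, as for 15.6% of all genes. *gln1* was above T0 in 1 strain, below it in 2 and overlapping in 4. The difference of mean log2 relative CPM ranged from 3.35 to 5.66 for *isp4* and from -3.99 to -2.38 for *gdh2*; no test was run within the mutants.

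The coefficient of variation of relative CPM over the 27 groups had a median of 12.99% for *amt2*, 13.4% for *gdh1*, 13.5% for *fnx1*, 13.9% for *gdh2* and 34.1% for *amt3*. It was highest in *hht2∆* at T2W for 7 of the 10 genes, up to 152% for *amt1*.

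At T0, before nitrogen was removed, libraries labelled as mutants differed from *smt0* at 3 members. *gdh2* was lower than in *smt0* in *arp42∆*, *pht1∆* and *asp1∆*, while *amt3* was higher in *pht1∆* and *arp42∆* and *put4* higher in *arp42∆*. *gdh2* relative CPM was 630.2, 546 and 928 in *arp42∆*, 1239.6, 1096 and 869 in *pht1∆* and 1258, 1087 and 1067 in *asp1∆*, beside 2639, 1865 and 1995 in *smt0*, with no overlap between *smt0* and any of these mutants. The log2 fold changes were -1.63 (SE 0.18, edgeR adjusted *P* = 5.99e-09), -1.02 (SE 0.18, edgeR adjusted *P* = 6.33e-05) and -0.93 (SE 0.18, edgeR adjusted *P* = 0.000635). *gdh2* was also below *smt0* on average in *hht2∆* (-0.40), *iec1∆* (-0.35) and *ies2∆* (-0.14), with overlap and no call. Counts of members called were 3 in *arp42∆*, 2 in *pht1∆* and 1 in *asp1∆*, beside 19.6%, 11.6% and 3.22% of all genes called in either direction.

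*put4* had 1019, 1113 and 986 relative CPM in *arp42∆* at T0 and 369, 506 and 486 in *smt0*, so that growing *arp42∆* cells lay near the *smt0* T1W level of 946 ± 34.8. The groups did not overlap (log2 fold change 1.20, SE 0.41, edgeR adjusted *P* = 0.0308), but the call was lost without any one of *smt0* T0 A, B or C or *arp42∆* T0 A or B (log2 fold changes 1.09 to 1.30, edgeR adjusted *P* 0.0605 to 0.115). *amt3* had 7.83, 7.98 and 8.62 in *arp42∆* and 4.03, 5.66 and 11.8 in *pht1∆* against 2.51, 1.52 and 0.885 relative CPM in *smt0*, also without overlap. Its log2 fold changes were 2.29 (SE 0.51, edgeR adjusted *P* = 0.00076) and 2.13 (SE 0.52, edgeR adjusted *P* = 0.0033), the latter 1.62 (edgeR adjusted *P* = 0.0759) without *pht1∆* T0 C.

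At T1D the ERCC scale showed a fall of 10 of 10 members against *smt0* in *pht1∆*, *iec1∆*, *asp1∆* and *arp42∆*, where 93.9%, 93.8%, 96.5% and 98.4% of all genes were called, so the members' counts are those of the background. The median log2 fold change over the members in these strains, in that order, was -3.17, -3.84, -4.25 and -6.66, beside -3.09, -3.60, -4.36 and -6.52 over all genes. *isp4* stood at 126, 149 and 117 reads per 1000 ERCC reads in *pht1∆* and 128, 18.8 and 66.7 in *iec1∆*. It stood at 57.5, 59.2 and 40.5 in *asp1∆* and 10.8, 9.88 and 31.0 in *arp42∆*, so that cultures of the 4 mutants lay below the *smt0* values of 1492, 528 and 488. None of the members was called in *hht2∆* on this scale (all genes 0.938%).

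On the relative scale at T1D few members were called in the mutants. In *arp42∆* and *iec1∆* the gene called was *amt3*, with 32.0, 37.1 and 17.5 relative CPM in *arp42∆*, 13.4, 23.0 and 13.5 in *iec1∆* and 4.52, 5.85 and 9.66 in *smt0*. Both mutants lay above *smt0* without overlap, by log2 fold changes of 2.17 (SE 0.44, edgeR adjusted *P* = 0.000131) and 1.37 (SE 0.44, edgeR adjusted *P* = 0.0264); the latter was 1.15 to 1.32 (edgeR adjusted *P* 0.0876 to 0.159) without *smt0* T1D A or B or *iec1∆* T1D B. Of all genes 32.2% and 15.5% were called. In *ies2∆*, with 43% of all genes called, *gdh1* and *gdh2* were higher. *gdh1* had 608, 343 and 652 relative CPM against 329, 177 and 206 (log2 fold change 1.17, SE 0.28, edgeR adjusted *P* = 0.000599). *gdh2* had 234, 169.7 and 228 against 132, 121 and 151 (log2 fold change 0.65, SE 0.18, edgeR adjusted *P* = 0.00329), a call that the fit of those 2 groups alone did not make (edgeR adjusted *P* = 0.0539). Since the *ies2∆* libraries are a batch of their own, strain and batch cannot be told apart in either value.

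The change from T0 to T1D was compared between each mutant and *smt0* by the interaction of strain and time. It differed for *gdh2* in *pht1∆*, *asp1∆* and *arp42∆* and for *isp4* and *put4* in *arp42∆*, with 2.35%, 5.22% and 23.2% of all genes called. *gdh2* fell by 3.99 on the log2 scale in *smt0* (difference of mean log2 relative CPM), by 3.03 in *pht1∆*, by 3.15 in *asp1∆* and by 2.38 in *arp42∆*. At T1D *gdh2* was not called different from *smt0* in any of the 3, while at T0 it was lower in each, as given above. The fitted differences of the changes were 0.96 (SE 0.26, edgeR adjusted *P* = 0.0263), 0.85 (SE 0.26, edgeR adjusted *P* = 0.035) and 1.60 (SE 0.26, edgeR adjusted *P* = 3.64e-06). In *arp42∆* *isp4* rose from 78.6, 70.9 and 86.8 relative CPM to 3902, 3909 and 4165, a larger rise than in *smt0* by a log2 difference of 1.76 (SE 0.64, edgeR adjusted *P* = 0.0382), and *put4* went from 1019, 1113 and 986 to 982, 871 and 1038, a difference from *smt0* of -1.70 (SE 0.58, edgeR adjusted *P* = 0.0254). Apart from *gdh2* in *arp42∆*, each of these calls was lost without some single libraries, 4 of 12 for *gdh2* in *pht1∆* (*smt0* T0 A and T1D B, *pht1∆* T0 C and T1D C; 0.80 to 0.94), 7 of 12 for *gdh2* in *asp1∆* (*smt0* T0 A, T1D A and T1D B, *asp1∆* T0 B, T0 C, T1D B and T1D C; 0.70 to 0.86), 7 of 12 for *isp4* (*smt0* T0 C, T1D A and T1D B, *arp42∆* T0 A, T0 B, T1D A and T1D B; 1.54 to 1.81) and 5 of 12 for *put4* (*smt0* T0 A and T1D A, *arp42∆* T0 B, T1D A and T1D B; -1.68 to -1.52), with edgeR adjusted *P* between 0.0507 and 0.112. The call of *gdh2* in *pht1∆* was also lost in a fit of only the 4 groups compared (0.99, edgeR adjusted *P* = 0.0688).

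**Figure D3:**
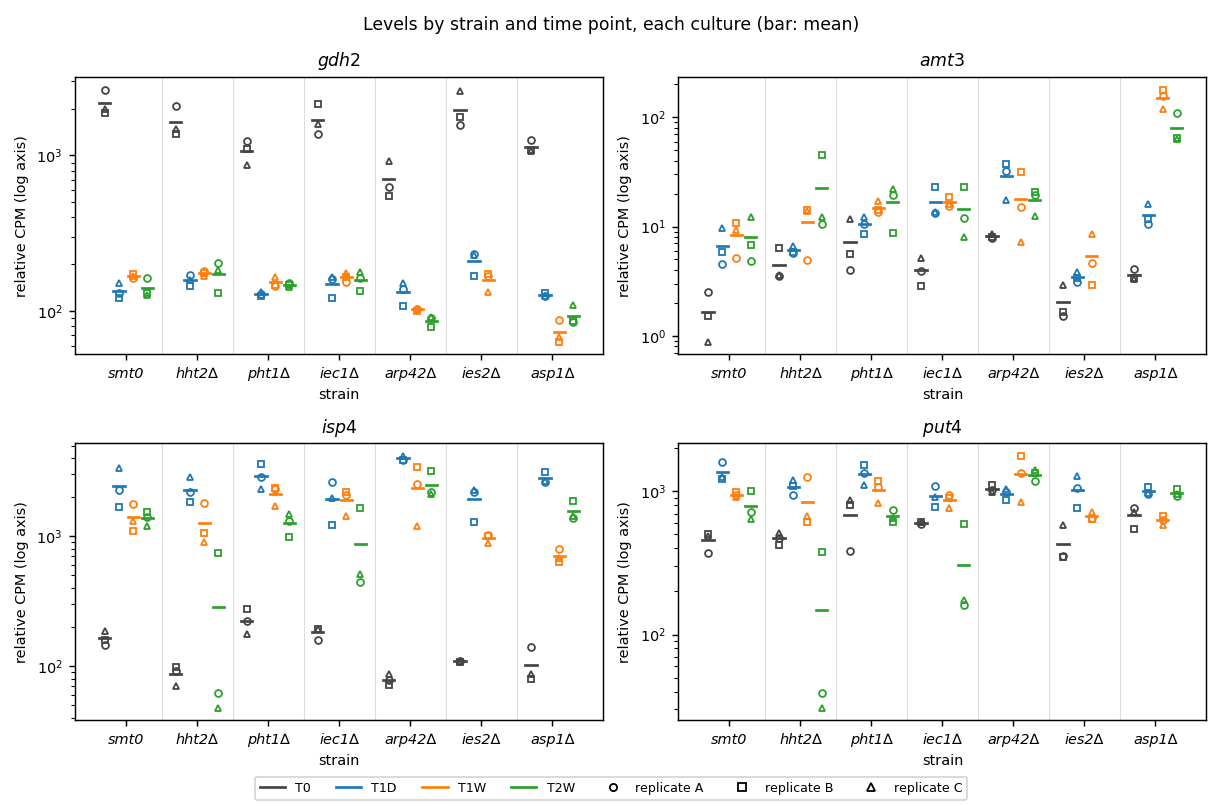
Relative CPM (log axis) of *gdh2*, *amt3*, *isp4* and *put4* in each culture by strain and time point; colours are time points, symbols replicates and bars group means. *gdh2* in *arp42∆* at T0 lies at 546 to 928 against 1865 to 2639 in *smt0*, and *amt3* in *asp1∆* at T1W lies at 118 to 179 against 5.18 to 10.7.

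After 1 week *asp1∆* had more members called than any other mutant, though not a larger share than that of all genes. In this mutant *amt3*, *amt2* and *gdh1* were higher and *gdh2* was lower than in *smt0*, 4 of 10 members where 55.3% of all genes were called. *amt3* had 155, 179 and 118 relative CPM (320, 850 and 336 reads) against 5.18, 10.7 and 9.33 in *smt0*, 18.1-fold higher (log2 fold change 4.18, SE 0.46, edgeR adjusted *P* = 4.39e-11). The antisense gene had a mean of 8.45 relative CPM in *asp1∆* and 18.3 in *smt0* at that time, so it did not move with *amt3*. *amt2* stood at 186, 215 and 186 against 105, 114 and 103, and *smt0* at T0 had 175, 185 and 170.0 (log2 fold change 0.87, SE 0.24, edgeR adjusted *P* = 0.00212). *gdh1* had 489, 496 and 413 against 220.2, 278 and 323 (log2 fold change 0.77, SE 0.28, edgeR adjusted *P* = 0.0169; 0.69 with edgeR adjusted *P* = 0.0617 without *smt0* T1W A), and *gdh2* 87.9, 64.0 and 68.9 against 163, 173 and 169 (log2 fold change -1.20, SE 0.19, edgeR adjusted *P* = 3.12e-07). For each of these 4 genes the groups did not overlap. *isp4*, at 806, 629.9 and 682 against 1774, 1099 and 1319.5, was also below *smt0* without overlap but missed the threshold (log2 fold change -0.99, SE 0.45, edgeR adjusted *P* = 0.0602).

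At T2W 5 of 10 members were called in *asp1∆*, beside 52.6% of all genes, and 4 of them were those called at T1W in the same direction. *amt3* had 109.7, 65.1 and 62.7 relative CPM against 4.89, 6.81 and 12.3 (log2 fold change 3.34, SE 0.46, edgeR adjusted *P* = 2.2e-08). *gdh1* had 618, 765 and 589.6 against 235, 307 and 228 (log2 fold change 1.36, SE 0.28, edgeR adjusted *P* = 6.46e-05). For *amt2* the log2 fold change was 0.81 (SE 0.25, edgeR adjusted *P* = 0.00492), or 0.60 (edgeR adjusted *P* = 0.0522) without *smt0* T2W C, and for *gdh2* it was -0.59 (SE 0.19, edgeR adjusted *P* = 0.00684). *gln1*, not called at T1W, had 562, 752 and 666 against 267, 431 and 329.8 (log2 fold change 0.95, SE 0.37, edgeR adjusted *P* = 0.0266), and 0.80 to 0.94 (edgeR adjusted *P* 0.066 to 0.103) without *smt0* T2W A or C or *asp1∆* T2W B. In the 5 genes called the cultures of the mutant and of *smt0* did not overlap.

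In *arp42∆* *gdh2* stayed below *smt0* at both late times, with 104, 101 and 104 relative CPM against 163, 173 and 169 at T1W. At T2W it had 91.0, 79.3 and 91.4 against 163, 131 and 128. The groups did not overlap at either time. This was 1 of 10 members called at each time, beside 10.7% and 16.8% of all genes, with log2 fold changes of -0.70 (SE 0.18, edgeR adjusted *P* = 0.00945) and -0.69 (SE 0.18, edgeR adjusted *P* = 0.00683). Without *arp42∆* T1W A or B the former was -0.65 to -0.63 (edgeR adjusted *P* 0.0594 to 0.103), and without *arp42∆* T2W B the latter was -0.63 (edgeR adjusted *P* = 0.0523). In *ies2∆* at T1W *gdh1* was again higher, with 651, 619 and 636 against 220.2, 278 and 323 (log2 fold change 1.21, SE 0.28, edgeR adjusted *P* = 0.00159), 1 of 10 members beside 16.3% of all genes; here too the batch goes with the strain.

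**Figure D4:**
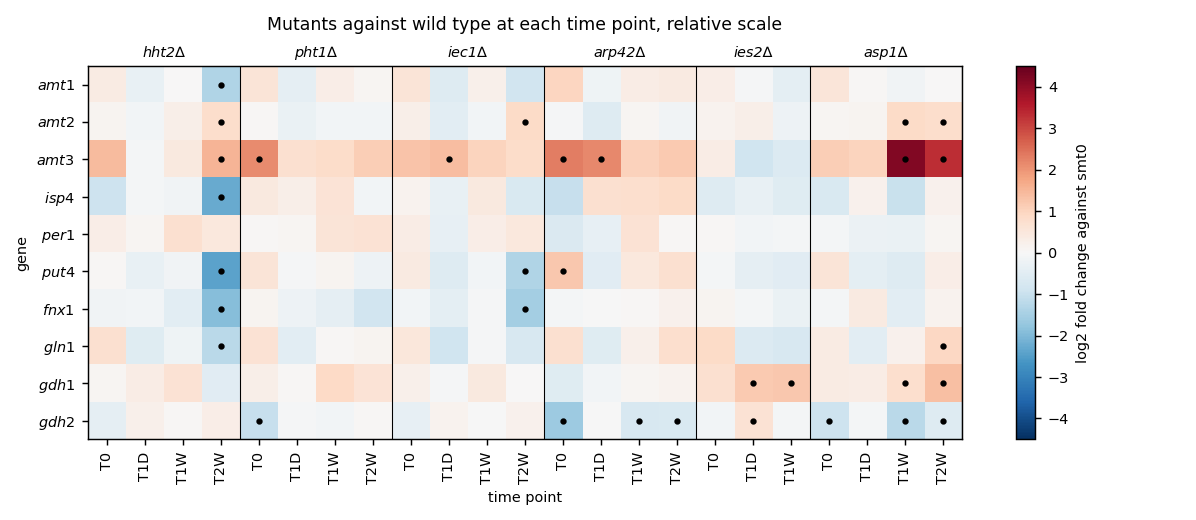
Log2 fold change of each gene against *smt0* at the same time point on the relative scale, by mutant and time (colour, red for higher and blue for lower; dots mark an adjusted *P* below 0.05). *amt3* in *asp1∆* at T1W (4.18) is the deepest red, and *gdh2* in *arp42∆* at T0 (-1.63) is the bluest call at T0.

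At T2W the cultures of *hht2∆* and of *iec1∆* did not behave as groups of 3. In *hht2∆* 7 of 10 members were called, 2 higher and 5 lower, beside 47% of all genes, but replicates A and C, both among the libraries with reads of the deleted gene, stood apart from replicate B. *amt1* relative CPM in A, B and C was 47.9, 996 and 41.5, that of *isp4* 62.0, 744 and 47.8 and that of *put4* 39.0, 379 and 30.8. For *fnx1* it was 6.24, 38.8 and 4.02 and for *gln1* 54.8, 356 and 37.7. Replicates A and C were thus far below B, and below *smt0*, in these 5 genes, whereas *amt2* (233, 98.8 and 158) was higher in A and C and *amt3* (10.5, 45.3 and 12.3) highest in B. The log2 fold changes were -2.28 (SE 0.47, edgeR adjusted *P* = 9.01e-05) for *isp4*, -2.40 (SE 0.43, edgeR adjusted *P* = 9.57e-06) for *put4* and -1.91 (SE 0.34, edgeR adjusted *P* = 7.79e-06) for *fnx1*, and they were -0.89, -1.04 and -0.63 with no call when the 6 libraries were left out. For *amt1* the value of -1.34 (SE 0.48, edgeR adjusted *P* = 0.019) became 0.13, for *gln1* that of -1.20 (SE 0.37, edgeR adjusted *P* = 0.00652) became 0.067, and for *amt2* that of 0.80 (SE 0.24, edgeR adjusted *P* = 0.00577) became 0.085, again with no call. *amt3*, at 1.53 (SE 0.45, edgeR adjusted *P* = 0.00457), was 2.55 (edgeR adjusted *P* = 0.00105) without the 6 libraries, a value that rests on replicate B, which is assumed to vary as the other groups do, and 0.52 (edgeR adjusted *P* = 0.349) without that replicate. Without replicate B the falls were larger, at -4.68 for *isp4*, -4.51 for *put4*, -3.55 for *fnx1*, -4.37 for *amt1* and -2.90 for *gln1*, each called. Leaving out single libraries ended the call of *amt1* (*smt0* T2W B, *hht2∆* T2W A or C; -1.17 to -0.80, edgeR adjusted *P* 0.0747 to 0.202), of *amt2* (*smt0* T2W C or *hht2∆* T2W A; 0.49 to 0.59, edgeR adjusted *P* 0.0637 to 0.136) and of *gln1* (*hht2∆* T2W A or C; -0.77 to -0.73, edgeR adjusted *P* 0.111 to 0.126). A fit of these 2 groups alone called 0 of the members and 4 of all genes (3106 in the fit of all groups).

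In *iec1∆* at T2W replicates A and C likewise stood apart from B, the library of lowest depth (1980570 gene counts), and the part of depth was not tested. *put4* relative CPM was 159.8, 588 and 175, that of *fnx1* 13.5, 40.7 and 13.5, that of *amt1* 267, 966 and 290.3 and that of *isp4* 441, 1657 and 514. *amt2*, at 206, 69.6 and 235, was higher in A and C. With all 3 cultures *put4* (log2 fold change -1.36, SE 0.41, edgeR adjusted *P* = 0.00841) and *fnx1* (log2 fold change -1.52, SE 0.34, edgeR adjusted *P* = 0.000568) were lower and *amt2* (log2 fold change 0.87, SE 0.24, edgeR adjusted *P* = 0.00451) was higher, 3 of 10 members beside 34.1% of all genes. Without *iec1∆* T2W B 7 members were called, among them *put4* (-2.25, edgeR adjusted *P* = 6.97e-05), *amt1* (-1.74, edgeR adjusted *P* = 0.00671) and *isp4* (-1.56, edgeR adjusted *P* = 0.00909), and without *iec1∆* T2W C 1 was. The shares of all genes called in these fits are not given here, so the counts do not set the members apart from other genes. The call of *put4* was lost without *smt0* T2W B or *iec1∆* T2W A or C (-1.15 to -1.05) and that of *amt2* without *smt0* T2W C or *iec1∆* T2W C (0.57 to 0.65), with edgeR adjusted *P* of 0.0564 to 0.115. A fit of the 2 groups alone called 0 of the members and 5 of all genes (2254 in the fit of all groups).

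**Figure D5:**
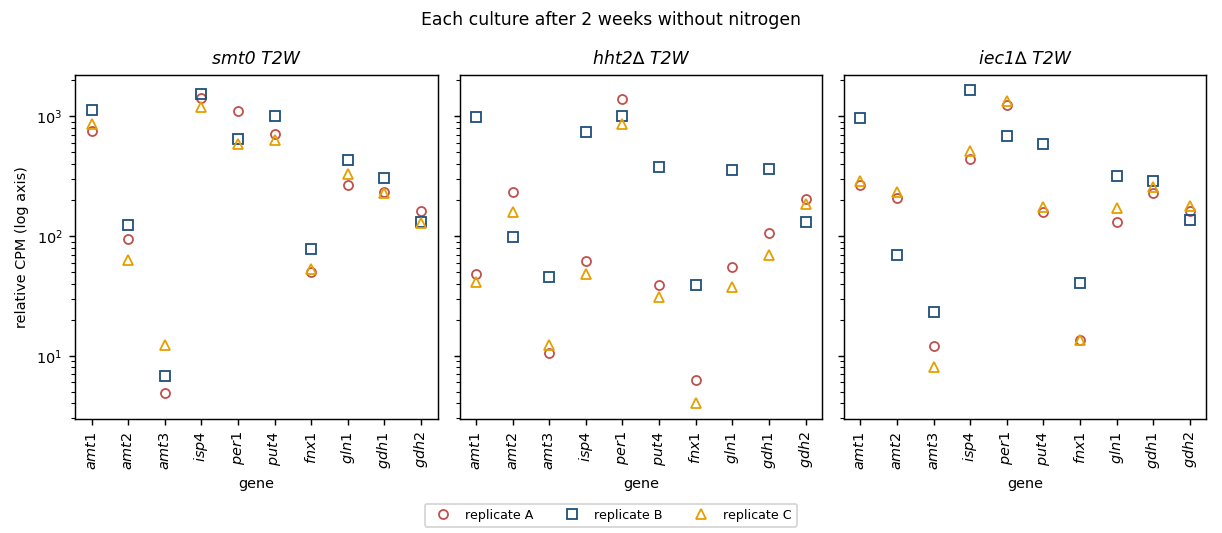
Relative CPM (log axis) of each gene in the 3 cultures of *smt0*, *hht2∆* and *iec1∆* at T2W. For *amt1* the *smt0* cultures lie at 754 to 1135, while in *hht2∆* replicates A and C have 47.9 and 41.5 against 996 in B, and in *iec1∆* 267 and 290 against 966.

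In the remaining comparisons on the relative scale no member passed the threshold in edgeR. Of all genes, 4.65%, 0.409% and 0.53% were called in *hht2∆* at T0, T1D and T1W and 1.71% for its change from T0 to T1D, where 3, 0, 2 and 3 members had an unadjusted *P* below 0.05 and DESeq2 called 0 in each. On the ERCC scale at T1D 0 members of *hht2∆* were below that unadjusted level and DESeq2 called 0. In *pht1∆*, with 7.7%, 4.18% and 17.6% of all genes called at T1D, T1W and T2W, 0, 2 and 4 members had an unadjusted *P* below 0.05 and DESeq2 called 0, 1 and 1. For *iec1∆* at T0 and T1W and its change to T1D (6.84%, 0.53% and 3.1% of all genes) these members numbered 1, 1 and 3, with 0 by DESeq2. For *asp1∆* at T1D (12% of all genes) it was 1 member, *amt3*, and 0 by DESeq2. In *ies2∆* at T0 and for its change to T1D (21.6% and 5.39%) they were *gln1* and *gdh1*, and *gln1* and *gdh2*, with 1 and 2 members called by DESeq2. Nearest to the threshold were *gdh1* in *pht1∆* at T1W (log2 fold change 0.90, SE 0.28, edgeR adjusted *P* = 0.0506; relative CPM 573, 455 and 501 against 220.2, 278 and 323) and *fnx1* in *pht1∆* at T2W (log2 fold change -0.86, SE 0.32, edgeR adjusted *P* = 0.0518; 26.4, 26.1 and 46.7 against 50.3, 77.8 and 53.6).

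Leaving out the 6 libraries added calls elsewhere in *hht2∆* and *ies2∆*. In *hht2∆* at T0 *amt3* was then higher (log2 fold change 1.60, edgeR adjusted *P* = 0.0368) and *gdh2* lower (-0.57, edgeR adjusted *P* = 0.0371). In *ies2∆* *gln1* was higher at T0 (1.02, edgeR adjusted *P* = 0.00496) and lower at T1D (-0.61, edgeR adjusted *P* = 0.0406) and T1W (-0.70, edgeR adjusted *P* = 0.0422), and its change from T0 to T1D differed from that of *smt0* by -1.63 (edgeR adjusted *P* = 0.00315). None of the 6 libraries is in the groups compared at T1D and T1W. The *gln1* calls at these times therefore rest on the same cultures, with the shared fit and its scaling changed. *gdh1* was higher at T0 as well (0.86, edgeR adjusted *P* = 0.00452), and the change of *gdh2* differed by 1.00 (edgeR adjusted *P* = 0.00519).

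Patterns over the 27 groups were compared in pairs of genes by Pearson's *r* of the log2 group means on the relative scale. The groups share strains, a wild type and library batches, so these values are descriptions. Among the members *amt1* and *put4* (0.88), *put4* and *fnx1* (0.87) and *amt1* and *isp4* (0.82) were the closest pairs, and *isp4* and *gdh2* (-0.84) and *amt2* and *isp4* (-0.78) the most opposed. Among the 6080 genes compared, the most similar to *amt1* was *isp7* (0.93), to *isp4* *SPAC13G6.08* (0.94), to *put4* *SPAC323.07c* (0.93), to *fnx1* *dal52* (0.92), to *per1* *csx1* (0.86) and to *amt3* *SPAC1705.02* (0.91). For *gdh2* it was *pyp3* (0.97), for *gdh1* the ribosomal protein gene *rps802* (0.89), for *amt2* the ribosomal protein gene *rpp0* (0.93) and for *gln1* *ppk11* (0.89).

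The positions of the members on ASM294v2 are *gln1* (*SPAC23H4.06*) at 1596073 to 1598149, *amt2* (*SPAC664.14*) at 1731083 to 1733268, *amt3* (*SPAC2E1P3.02c*) at 2924692 to 2927075 and *per1* (*SPAP7G5.06*) at 3748767 to 3751729 on chromosome I, with *put4* (*SPAC869.10c*) as given above. On chromosome II lie *isp4* (*SPBC29B5.02c*) at 1550293 to 1553467 and *fnx1* (*SPBC12C2.13c*) at 2444297 to 2446292, and on chromosome III *gdh2* (*SPCC132.04c*) at 1332569 to 1336197, *gdh1* (*SPCC622.12c*) at 1419131 to 1421212 and *amt1* (*SPCPB1C11.01*) at 2068977 to 2071707. Besides *amt3*, antisense genes cover parts of 3 members, with a median of 2 reads for *amt2-antisense-1*, 20 for *put4-antisense-1* and 3 for *fnx1-antisense-1*. *per1*, *gdh1* and *gdh2* share 19 to 94 bases with neighbouring genes. That of *per1* is the non-coding gene *SPNCRNA.935* on the same strand, with 67 shared bases and a median of 1963 reads against 4004 for *per1*. The paper lists *SPNCRNA.935* as upregulated at T1D, and its part in the *per1* values was not tested.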

How the data were processed

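RNA was sequenced from 81 cultures in 27 groups; 16 ChIP samples of the series were not analysed here. The authors aligned reads with STAR 2.7.9a to ASM294v2 plus the ERCC sequences and counted them per annotated exon with featureCounts 1.5.1, and the deposited table holds raw read counts per gene and sample (of 7014 genes, 6608 exceeded 1 CPM in 3 or more libraries and were tested). Library preparation keeps strand after depletion of ribosomal RNA.

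Counts were fitted with edgeR 4.0.16 (R 4.3.3, limma 3.58.1; glmQLFit and glmQLFTest) in a single model of 27 groups with no block, on the ERCC scale (ERCC total times the TMM factor of its counts) and the relative scale (TMM on gene counts), with Benjamini-Hochberg adjustment within each of 40 comparisons and a threshold of 0.05. On the ERCC scale *ies2∆* libraries were shifted by 3.70 (log2) for fitting and compared with no other strain. DESeq2 1.42.0 was an alternative, and the scripts were tested on simulated data. Figures used Python 3.11.15 with pandas 2.3.3 and matplotlib 3.10.9. Depth was 1980570 to 18992894 gene counts per library. No pair of libraries in a group agreed within sampling noise (lowest chi-square per degree of freedom 3.513).

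The letters A, B and C were checked as pairs. T0 and T1D samples came from split cultures, but the labels do not say that a letter marks a culture, and deviations of same-lettered libraries correlated above 0.1 in every pair in 1 of 26 comparisons (*hht2∆* at T2W, 0.25 to 0.45), where the block left the count of members called at 7. Most of the 26 set a mutant against *smt0*, which are different cultures. T0 and T1D of the same strain were checked in *smt0* only (-0.071 to 0.045). Pairing within the mutants was therefore not checked.

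All 10 members are named. From the other lists up to 10 genes called in *smt0* at T1D were named by the size of the change, and the most similar of 3 genes ranked by *r* for each member, leaving out genes whose mean count over the libraries was under 10. The members and lists were chosen with earlier results of these data known. Alternatives were another scaling (RLE, ERCC total without TMM), other filters, DESeq2, a replicate block, a fit of the groups compared alone, each library left out in turn, and the 6 libraries with reads of the deleted gene left out. Protein sequences were not used here.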

Additional observations from a re-analysis of the deposited data

Results flagged for a closer look

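The change from T0 to T1D differed between a mutant and *smt0*, by the interaction term in edgeR, for 5 pairs of gene and strain on the relative scale. These were 3 of 10 members in *arp42∆*, beside 23.2% of all genes called. In *pht1∆* and *asp1∆* it was 1 of 10 each, beside 2.35% and 5.22% of all genes. *gdh2* fell less than in *smt0* in *arp42∆* (difference of the log2 changes 1.60, adjusted *P* = 3.64e-06), in *pht1∆* (0.96, adjusted *P* = 0.0263) and in *asp1∆* (0.85, adjusted *P* = 0.0350). In *arp42∆* *isp4* rose more (1.76, adjusted *P* = 0.0382) and *put4* less (-1.70, adjusted *P* = 0.0254). Without single libraries the adjusted *P* passed 0.05 for each of these except *gdh2* in *arp42∆*, and for *gdh2* in *pht1∆* it was 0.0688 when only the 4 groups compared were fitted (difference 0.99).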

How the results depend on the processing

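Of 400 combinations of member and comparison 123 were called, and 94 of them were called under every alternative run. These counts pool the scales. On the ERCC scale 10 of 10 members were called in *smt0* at T1W and T2W. The same held against *smt0* at T1D in *pht1∆*, *iec1∆*, *asp1∆* and *arp42∆*. In these comparisons 93.8% to 98.4% of all genes were called. Most of the calls lost under some alternative were on the relative scale. Scaling by the ERCC total without TMM changed no member's call. The replicate block changed 2 (pairing letters A, B and C): 1 member was then called for the *ies2∆* change to T1D and 1 in *pht1∆* at T2W, where 0 had been. Without a filter 1 member was called in *pht1∆* at T1W and 1 at T2W; with a mean of at least 10 counts these were 1 and 1 again, and 1 for the *ies2∆* change. RLE factors gave 2 for *arp42∆* at T1W, 1 for the *ies2∆* change, 1 for *pht1∆* at T1W and 1 at T2W. DESeq2 gave 2 for *arp42∆* at T1W, 1 for *ies2∆* at T0, 2 for the *ies2∆* change, 1 for *pht1∆* at T1W and 1 at T2W. Fitting only the groups compared kept 26 of 40 counts within 1.5 times. It gave 0 members in place of 7 in *hht2∆* at T2W, 0 in place of 3 in *iec1∆* at T2W, 0 in place of 1 for the *pht1∆* change and 1 in place of 2 in *ies2∆* at T1D; it gave 8 for 3 in *arp42∆* at T0, 5 for 3 for its change, 7 for 4 in *asp1∆* at T1W, 2 for 1 for its change, 2 for 1 in *iec1∆* at T1D, 3 for 0 in *ies2∆* at T0 and 4 for 1 at T1W, and 1 for 0 in *hht2∆* at T0, *pht1∆* at T1W and the *iec1∆* change. The cause was not tested. Without the 6 libraries with reads of the deleted gene 1 member in place of 7 was called in *hht2∆* at T2W, where *amt1* (0.13) and *gln1* (0.067) changed sign, and 2 in *hht2∆* at T0, *ies2∆* at T0 and T1W and the *ies2∆* change.

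Leaving out 1 library moved the count of members called by over 1.5 times in 13 of 40 comparisons: 4 to 8 in *hht2∆* at T2W, 1 to 2 in *pht1∆* at T0, 0 to 2 at T2W and 0 to 1 for its change, 0 to 1 in *iec1∆* at T1D and 1 to 7 at T2W, 3 to 5 in *asp1∆* at T2W and 0 to 1 for its change, 0 to 3 in *arp42∆* at T1W, 0 to 2 at T2W and 1 to 3 for its change, and 0 to 1 in *ies2∆* at T0 and for its change. The shares of all genes called in these fits are not given here.

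Counts over all genes moved by over 1.5 times in 18 comparisons when only the groups compared were fitted. For *hht2∆* they went from 62 to 16 (T1D, ERCC scale), 35 to 7 (T1W) and 3106 to 4 (T2W), for *pht1∆* from 509 to 166, 276 to 431 and 1163 to 550 (T1D, T1W, T2W) and 155 to 77 (change), and for *iec1∆* from 1023 to 468 (T1D) and 2254 to 5 (T2W). For *asp1∆* they went from 213 to 491 (T0) and 345 to 719 (change), for *arp42∆* from 1296 to 2737, 2130 to 1111, 710 to 183 and 1113 to 552 (T0 to T2W), and for *ies2∆* from 2842 to 923 (T1D), 1078 to 1628 (T1W) and 356 to 24 (change). DESeq2 gave 55 for 35 (*hht2∆* T1W), 174 for 113 (*hht2∆* change), 69 for 35 (*iec1∆* T1W) and 539 for 356 (*ies2∆* change). Without the 6 libraries the *hht2∆* counts were 11 for 62 (T1D, ERCC scale), 621 for 307 (T0), 15 for 27 (T1D), 152 for 3106 (T2W) and 63 for 113 (change), and the *ies2∆* change had 893 for 356. With 3 cultures per group, and 5 to 16 *amt3* reads in growing *smt0*, a missed threshold does not show equal levels.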

Other observations

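The other nitrogen lists, chosen with earlier results of these data known, had these counts at T1D in *smt0* per cell. Each gene called higher is among those the paper reported as upregulated at T1D in the same cultures. On the ERCC scale 4 of 11 genes of other uptake and vacuolar transport were higher and 2 lower (median log2 fold change -0.12), 3 of 9 genes of nitrogen release and transfer were higher and 2 lower (median -0.17), and 1 of 8 regulators was higher and 0 lower (median -0.33), beside 2.24% of all genes higher, 21.4% lower and a median of -1.05.

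The ratio of *amt3* to its antisense gene, by mean relative CPM, was 0.21 in *smt0* at T0 and 0.60 at T1D, and 17.9 and 7.42 in *asp1∆* at T1W and T2W. In *ies2∆* the antisense gene stood at 24.7 at T0, 46.2 at T1D and 39.3 at T1W, and *amt3* at 2.03, 3.43 and 5.34. In the other groups outside *ies2∆* the ratio lay between 0.26 and 1.76.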
